A study of Mus musculus with 5 samples.

Results

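The tumour necrosis factor (TNF) superfamily and its receptors were compared between dendritic cells (DCs) sorted from mouse brain and monocytes sorted from mouse bone marrow. The family was taken as 36 genes, 17 ligands and 19 receptors, listed by symbol with earlier results of these data known. Of these, 32 had a probe set of their own among the 18193 genes on the Affymetrix arrays: 13 ligands and all 19 receptors. Tnfsf12 and Tnfsf13 lay only on probe sets annotated to several symbols, and Tnfsf15 and Tnfsf18 were not named in the annotation used, so these 4 ligands have no value here.

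The brain DC group held 2 arrays, each of Lin-CD45hiCD11c+ cells from mice given B16-Flt3L tumour cells under the skin, with organs taken on day 12. B16-Flt3L is a mouse melanoma line named for Flt3 ligand, a cytokine that expands dendritic cells. The monocyte group held 3 arrays of SSCloCD11bhi CD115+ cells, for which the labels give no treatment. All samples are labelled as female C57BL/6 mice of 6 to 8 weeks. Brain microglia and spleen DCs, also named by the series, were not analysed here. Whether animals were pooled or each sample had its own is not stated, and the spread between samples that the p-values measure may be technical. Tissue, cell type and tumour treatment separate the groups in the same way and cannot be told apart.

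Ligands of this superfamily are mostly trimeric membrane proteins, some of them also shed. They bind receptors that signal in one of several ways. Death domain receptors such as Fas can start apoptosis, while receptors that bind TRAF adaptors activate NF-kappaB and support survival and costimulation. Dendritic cells use several ligands of the family to costimulate T cells, and the lymphotoxin and BAFF branches serve lymphoid tissue and B cells.

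Each value is on the log2 scale and relative to the baseline of its probe set. Arrays can thus be compared within a gene, but levels of different genes cannot. A level of 0 is that baseline, not absence, and no gene can be said to be expressed or absent. Differences are brain DC minus monocyte with the standard error (SE) of a limma fit across all genes (2 brain DC and 3 monocyte arrays). A gene was called at a Benjamini-Hochberg adjusted p below 0.05. An exact two-sided permutation test of 2 arrays against 3 cannot give a p below 0.1, so no single gene can be called without the model. In sorted bulk samples, fewer cells of a type and less RNA per cell cannot be told apart.

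Other measures differed between the groups along with the family. The 7 conventional DC markers examined were all called higher in brain DCs. Of 5 monocyte markers, Itgam, Csf1r and Ccr2 were called lower, Fcgr1 was not called, and Cd14 was called higher (2.31). All 6 microglial markers measured were also called higher, with a mean over the list of 1.46 and 1.79 on the brain DC arrays against -0.94 to -0.64 on the monocyte arrays. Of 5 choroid plexus and glial markers, Ttr of the choroid plexus was called higher (7.22), and Aqp4 (0.30), Mbp (0.29), Cldn11 (0.28) and Gfap (0.13) were not called. Of 4 endothelial markers, Cldn5 (2.56) and Pecam1 (0.59) were called higher, and Cdh5 (0.25) and Flt1 (-0.35) were not called. Of 7 neutrophil markers, Cd177 (-5.67), Mpo (-4.64) and Elane (-2.38) were called lower and S100a9 (1.41) higher, while Camp (1.33), Ltf (0.92) and S100a8 (-0.12) were not called. The mean of the neutrophil list was 1.27 and 1.62 on the brain DC arrays and 1.81 to 3.28 on the monocyte arrays. Xist was higher by 5.62 and the Y-linked genes Eif2s3y, Uty and Kdm5d were at -0.62, -0.91 and -1.09, although all samples are labelled female. All 24 poly-A spike-in probe sets, which read RNA added at the labelling step, were higher in brain DCs (median difference 2.59). The part of these in the family's differences was not tested.

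Upstream sequences are shown for 4 members to set members that differed between the groups, and 1 that was not called, beside the presence or absence of an NF-kappaB consensus. Each is the 250 bases before a RefSeq start site (build GRCm38.p6), written 5′ to 3′ on the gene's strand, with matches in capitals. The stretches are Ltb at chr17:35194257-35194506 (plus strand), Tnf at chr17:35202008-35202257 (minus strand), Tnfrsf18 at chr4:156026072-156026321 (plus strand) and the second listed start of Tnfrsf9 at chr4:150927749-150927998 (plus strand).
Ltb: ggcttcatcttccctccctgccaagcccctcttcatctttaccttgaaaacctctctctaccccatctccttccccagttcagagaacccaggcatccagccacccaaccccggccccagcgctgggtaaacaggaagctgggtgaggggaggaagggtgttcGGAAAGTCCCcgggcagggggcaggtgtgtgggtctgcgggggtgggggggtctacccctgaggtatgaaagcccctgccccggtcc
Tnf: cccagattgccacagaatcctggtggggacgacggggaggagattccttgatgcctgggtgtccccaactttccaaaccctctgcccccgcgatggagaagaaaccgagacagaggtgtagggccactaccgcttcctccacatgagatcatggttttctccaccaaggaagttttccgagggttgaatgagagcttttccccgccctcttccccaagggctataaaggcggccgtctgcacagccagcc
Tnfrsf18: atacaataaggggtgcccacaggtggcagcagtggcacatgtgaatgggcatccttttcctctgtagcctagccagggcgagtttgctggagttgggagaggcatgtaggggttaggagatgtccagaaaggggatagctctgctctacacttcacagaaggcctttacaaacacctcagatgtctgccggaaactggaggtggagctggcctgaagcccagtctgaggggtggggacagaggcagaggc
Tnfrsf9: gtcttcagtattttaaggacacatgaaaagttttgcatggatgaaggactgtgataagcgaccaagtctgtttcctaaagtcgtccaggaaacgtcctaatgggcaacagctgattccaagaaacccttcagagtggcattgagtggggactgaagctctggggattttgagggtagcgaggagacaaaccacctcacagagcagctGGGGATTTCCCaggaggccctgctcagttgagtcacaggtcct
The Ltb match lies on the opposite strand and begins at position -87, counted back from the start site. The Tnfrsf9 stretch holds overlapping matches that begin at -43 and -42.

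Across the family, more members were higher in brain DCs than lower. Of 32 measured members, 12 were called higher, 3 lower and 17 not called. The 15 called members compare with 33.8% called among all genes. Over all genes, 16.9% were called higher and 16.9% lower. Called or not, 26 of the 32 members had a difference above 0, against 58.8% of all genes. The median difference was 0.26 in the family and 0.09 over all genes. The arrays of the groups did not overlap for 19 of the 32 members, against 60.2% of all genes, so the count without overlap lay near the background. Of the called members, 7 were higher and 2 lower by at least 2-fold, against 6.03% and 7.51% of all genes. The differences ran from -2.06 for Tnfrsf21 to 4.33 for Tnfsf9.

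**Figure D1:**
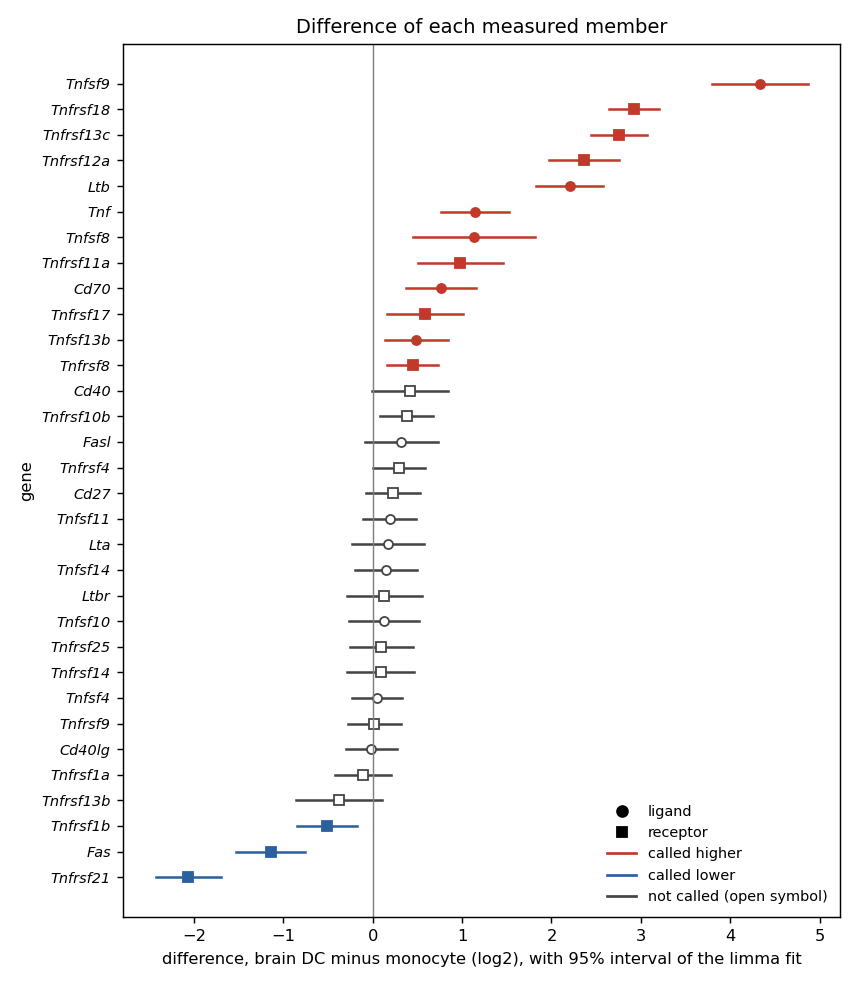
Difference of each of the 32 measured members between brain DCs and bone marrow monocytes (horizontal axis, log2), with the 95% interval of the limma fit; circles are ligands, squares receptors, red called higher, blue called lower and open symbols not called. Tnfsf9 stands at 4.33, 3 receptors lie between 2.36 and 2.92, and Tnfrsf1b, Fas and Tnfrsf21 are the members called lower.

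Among ligands, 6 of 13 were called higher (46.2%), 0 lower and 7 not called, with a median of 0.32. Over all genes, 16.9% were called higher and 16.9% lower. At an unadjusted limma p below 0.05 the counts were also 6 and 0, against 4283 and 3766 of all 18193 genes. Limma with robust variance estimates gave 6 and 0 as well. The 6 were Tnfsf9, Ltb, Tnf, Tnfsf8, Cd70 and Tnfsf13b.

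Tnfsf9 encodes the 4-1BB ligand, a costimulator of activated T cells and natural killer (NK) cells. It read 3.58 and 4.03 on the brain DC arrays and -0.12, -0.68 and -0.78 on the monocyte arrays. Both brain DC arrays lay far above all monocyte arrays. The difference was 4.33 ± 0.23 SE, 20.1-fold (limma adjusted p = 1.94e-05), the largest of the family in size.

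The TNF and lymphotoxin ligands are encoded side by side in the order Ltb, Tnf, Lta. Ltb, whose protein joins lymphotoxin alpha in the membrane-bound lymphotoxin of lymphoid organ development, read 0.36 and 0.29 on brain DC arrays and -2.13, -1.69 and -1.81 on monocyte arrays. It was 4.61-fold higher (2.20 ± 0.16 SE, limma adjusted p = 7.82e-05), with the monocyte arrays more scattered than the brain DC arrays. Tnf, the inflammatory cytokine that names the family, read 0.12 and 0.60 in brain DCs and -0.79, -0.73 and -0.82 in monocytes. The brain DC arrays were thus both higher, and Tnf was 2.21-fold higher (1.14 ± 0.16 SE, limma adjusted p = 0.00167). Lta, which encodes lymphotoxin alpha, read -0.28 and 0.14 against -0.04, -0.36 and -0.32. Its groups overlapped and it was not called (0.17, 95% interval -0.24 to 0.58). Neighbouring genes of the locus therefore had values from 0.17 to 2.20. The difference between them was not tested. In the upstream sequences, Ltb holds the consensus match and Tnf does not.

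Of 6 measured costimulatory ligands, 3 were called higher (50%, against 16.9% of all genes). Besides Tnfsf9, these were Tnfsf8 and Cd70. Tnfsf8, which encodes the CD30 ligand, read 0.51 and 1.62 in brain DCs and -0.17, -0.03 and 0.00 in monocytes. The brain DC arrays differed from each other by more than the lower of them differed from any monocyte array. The difference was 1.13 ± 0.29 SE (limma adjusted p = 0.0207), but it was 1.69 without brain DC replicate 1. Leaving out brain DC replicate 2 gave 0.58 (limma adjusted p = 0.0348). It was not called without bone marrow monocyte replicate 1 or 2 (limma adjusted p = 0.0611 and 0.0509). Cd70, the CD27 ligand of activated lymphocytes and mature dendritic cells, read 0.67 and 0.47 against -0.10, -0.03 and -0.47. The difference was 0.77 ± 0.17 SE (limma adjusted p = 0.0106), and leaving out brain DC replicate 1 ended the call (0.67, limma adjusted p = 0.0614). The other costimulatory ligands were not called: Tnfsf14, the LIGHT ligand, at 0.15, Tnfsf4, the OX40 ligand, at 0.05, and Cd40lg, a ligand chiefly of activated helper T cells, at -0.02. The 95% interval was -0.23 to 0.32 for Tnfsf4 and -0.30 to 0.27 for Cd40lg.

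Tnfsf13b, which encodes the B cell survival factor BAFF, was called higher by a small amount. Averaged over its 3 probe sets it read 0.93 and 1.33 in brain DCs and 0.69, 0.59 and 0.64 in monocytes. The difference was 0.49 ± 0.15 SE (limma adjusted p = 0.0419). Its probe sets did not point one way, at 0.92, 0.65 and -0.10, and only the second of these was called when probe sets were tested one by one. The call did not hold when brain DC replicate 2 was left out (0.29, limma adjusted p = 0.195), nor without any 1 of the 3 monocyte replicates (limma adjusted p from 0.0866 to 0.104). It was also lost when each array was centred on its median (0.45, limma adjusted p = 0.0573). The fit with the replicate number as a block lost it too (limma adjusted p = 0.0848). That fit leaves out bone marrow monocyte replicate 3, as no brain DC array has that number.

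The death-inducing ligands were not called. Fasl, which triggers apoptosis through Fas, read 0.44 and -0.07 in brain DCs and -0.04, -0.20 and -0.18 in monocytes. Only 1 brain DC array lay above the monocyte range. The difference was 0.32 ± 0.17 SE, and it rested on brain DC replicate 1. It was 0.07 without that array (limma adjusted p = 0.789), and it passed the threshold without brain DC replicate 2 (0.58, limma adjusted p = 0.0352). Tnfsf10, which encodes TRAIL, was at 0.13 ± 0.17 SE, but its 3 probe sets gave 0.78, 0.07 and -0.46, and the first alone was called higher (limma adjusted p = 0.00795 over all probe sets). Tnfsf11, which encodes the osteoclast factor RANKL, was at 0.19 and not called, although its groups did not overlap.

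**Figure D2:**
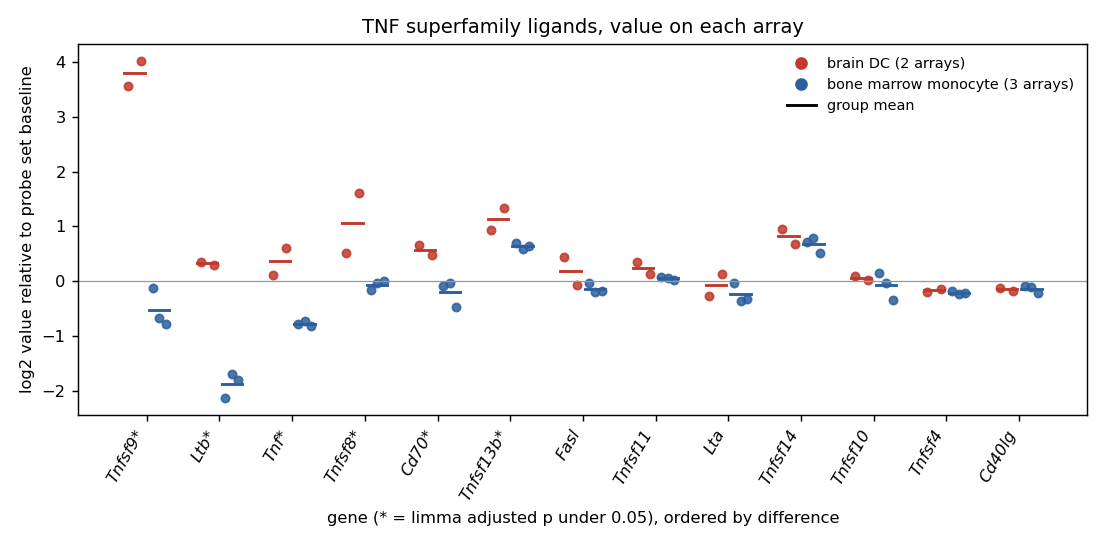
Value of each of the 13 measured ligands on every array (vertical axis, log2 relative to the probe set baseline; red brain DC, blue bone marrow monocyte, bars are group means, stars mark called genes). Tnfsf9 sits at 3.58 and 4.03 on the brain DC arrays and below 0 on all monocyte arrays, while Tnfsf8 shows its brain DC arrays apart at 0.51 and 1.62.

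Receptors were called in both directions. Of 19, 6 were called higher, 3 lower and 10 not called, with a median of 0.23. These are 31.6% higher and 15.8% lower, against 16.9% and 16.9% of all genes. The share called lower thus lay near the background. The 6 were Tnfrsf18, Tnfrsf13c, Tnfrsf12a, Tnfrsf11a, Tnfrsf17 and Tnfrsf8, and the 3 were Tnfrsf21, Fas and Tnfrsf1b.

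Tnfrsf18 encodes GITR, a costimulatory receptor best known on regulatory T cells. It read 1.10 and 1.16 in brain DCs and -1.80, -1.72 and -1.83 in monocytes. Arrays of a group differed little (SD 0.04 in brain DCs and 0.06 in monocytes). The receptor was 7.56-fold higher (2.92 ± 0.12 SE, limma adjusted p = 5.97e-06), the smallest adjusted p of the family. Its genomic neighbour Tnfrsf4, which encodes OX40, read -0.03 and -0.17 against -0.36, -0.46 and -0.36. The arrays of Tnfrsf4 did not overlap, but it was not called (0.29 ± 0.12 SE, limma adjusted p = 0.109). The upstream stretch of Tnfrsf18 printed above holds no match to the consensus.

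The remaining costimulatory receptors showed small differences. Tnfrsf8, which encodes CD30, read 0.16 and 0.10 against -0.36, -0.24 and -0.37 and was called higher (0.45 ± 0.12 SE, limma adjusted p = 0.0268). That call was lost without brain DC replicate 1 or 2 or bone marrow monocyte replicate 1 or 3 (limma adjusted p from 0.0602 to 0.0951) and with the replicate block (limma adjusted p = 0.0945). With each gene read from its probe set of largest SD, which leaves this gene's single probe set as it is, Tnfrsf8 and Tnfrsf17 were not called (limma adjusted p = 0.0594 and 0.0574). Cd40, through which helper T cells license dendritic cells, read 1.61 and 1.16 against 0.77, 0.96 and 1.17. Its groups just overlapped, and it was not called (0.42 ± 0.18 SE, limma adjusted p = 0.122). The result for Cd40 depended on the processing. Without probe sets whose names end in _x_at or _s_at, only its probe set at 0.72 was left, and Cd40 was called (limma adjusted p = 0.00497). It was also called after quantile normalisation of the 5 arrays (0.67, limma adjusted p = 0.0188). It fell to 0.20 with the median of its probe sets (limma adjusted p = 0.472) and to 0.19 when brain DC replicate 1 was dropped (limma adjusted p = 0.520). Dropping brain DC replicate 2 gave 0.64 (limma adjusted p = 0.0511). Cd27 at 0.23, Tnfrsf14 (HVEM) at 0.09 and Tnfrsf9 (4-1BB) at 0.02 were not called. The 95% interval of Tnfrsf9 was -0.28 to 0.32. Of its listed start sites, the second carries the consensus matches printed above and the first carries 0.

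Markers of T cells and NK cells, which use several of these costimulatory genes, were called higher in part. Of 9 T cell markers measured, Cd8a (1.06), Cd5 (0.97) and Cd3d (0.45) were called higher (33.3%, against 16.9% of all genes). Cd3e (0.19), Cd3g (0.48), Cd4 (0.14) and Cd28 (-0.04) were among the 6 not called. Cd8a is also expressed by a subset of dendritic cells. The mean of the T cell list was -0.02 and 0.01 on the brain DC arrays and -0.51 to -0.33 on the monocyte arrays. Of 9 NK cell markers, 5 were called higher (55.6%), led by Klrd1 (6.29) and Klrk1 (4.06). Prf1 (0.27), Ncr1 (0.10), Eomes (0.08) and Nkg7 (-0.30) were not called. The mean of the NK list was 1.10 and 1.22 against -0.72 to -0.37. The brain DC sort was lineage-negative, with a cocktail that the labels do not list. Whether such cells are in the samples, and their part in the differences of Tnfrsf18, Tnfsf8, Cd70 and Tnfsf9, was not tested.

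The receptors of BAFF and APRIL, known mainly from B cells and plasma cells, did not move together. Tnfrsf13c, the BAFF receptor, read 1.94 and 1.73 in brain DCs and -0.957, -1.004 and -0.816 in monocytes. The groups were widely separated, and it was 6.77-fold higher (2.76 ± 0.13 SE, limma adjusted p = 1.34e-05). Tnfrsf17, which encodes BCMA, read 0.36 and 0.03 against -0.64, -0.39 and -0.16 and was called by a narrow margin (0.59 ± 0.18 SE, limma adjusted p = 0.0409). The call of Tnfrsf17 did not hold when brain DC replicate 1 was left out (0.42, limma adjusted p = 0.202), nor without bone marrow monocyte replicate 1 or 2 (limma adjusted p = 0.112 and 0.0901). It was also lost after quantile normalisation (limma adjusted p = 0.0591) and with arrays centred on their medians (limma adjusted p = 0.0560). Tnfrsf13b, which encodes TACI, read -0.14 and 0.19 against 0.25, 0.76 and 0.19, and its difference pointed the other way without being called (-0.38 ± 0.20 SE). Of 7 B cell markers, Ms4a1 was called higher (1.00). The other 6 were not called: Pax5 (0.44), Cr2 (0.35), Fcer2a (0.09), Blk (0.03), Cd79a (-0.14) and Cd79b (-0.78). At an unadjusted limma p below 0.05, 3 were higher and 0 lower, against 4283 and 3766 of all 18193 genes. The mean of the B cell list was -0.39 and -0.25 on the brain DC arrays and -0.55 to -0.33 on the monocyte arrays, so the groups' ranges overlapped. The lower brain DC mean, of replicate 1, includes Cd79b at -2.07, which read -0.47 on replicate 2. The plasma cell list had 0 of 4 markers called higher, also at an unadjusted limma p below 0.05, and Prdm1 called lower (-0.94). Jchain (1.35), Sdc1 (0.17) and Xbp1 (-0.31) were not called. Jchain read 1.71 on brain DC replicate 1 but -1.23 on replicate 2, against -1.25, -1.04 and -1.03 in monocytes. Whether plasma cells have a part in the Tnfrsf17 value was not tested.

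Among the other receptors that bind TRAF adaptors, Tnfrsf12a and Tnfrsf11a were higher. Tnfrsf12a encodes Fn14, the receptor of the TWEAK cytokine and an inducible gene of injured tissue. It read 2.19 and 1.72 in brain DCs and -0.45, -0.31 and -0.47 in monocytes. Its difference was 2.36 ± 0.17 SE, 5.14-fold (limma adjusted p = 7.13e-05), and both of its probe sets were called, at 2.53 and 2.19. Tnfrsf11a, which encodes RANK, a receptor of osteoclast precursors and dendritic cells, read 0.28 and 0.86 against -0.20, -0.60 and -0.44. It was 1.97-fold higher (0.98 ± 0.20 SE, limma adjusted p = 0.00864), again with both probe sets called, at 1.21 and 0.75. Ltbr, the lymphotoxin beta receptor, was at 0.13 (95% interval -0.29 to 0.55) and not called.

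The TNF receptors themselves were not higher in brain DCs. Tnfrsf1a, the broadly expressed death domain receptor of TNF, read 0.38 and 0.60 against 0.68, 0.50 and 0.62, with overlapping groups and no call (-0.11 ± 0.13 SE). Tnfrsf1b, the TNF receptor of leukocytes, read 0.60 and 0.67 against 1.32, 0.97 and 1.15. It was called lower (-0.51 ± 0.14 SE, limma adjusted p = 0.0304). Its probe sets differed, at -0.93 and -0.09, and the first alone was called. The call was lost after quantile normalisation (-0.41, limma adjusted p = 0.0869), with the replicate block (limma adjusted p = 0.0689) and without brain DC replicate 1 or 2 or bone marrow monocyte replicate 1 or 3 (limma adjusted p from 0.0716 to 0.113).

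Of 5 death domain receptors, 2 were called lower and 0 higher, against 16.9% and 16.9% of all genes. At an unadjusted limma p below 0.05 the counts were 2 and 1, against 3766 and 4283 of all 18193 genes. Tnfrsf21, which encodes death receptor 6, read -0.69 and -0.30 in brain DCs and 1.61, 1.45 and 1.64 in monocytes. All monocyte arrays were higher, by 4.17-fold on average (-2.06 ± 0.16 SE, limma adjusted p = 9.35e-05), and both probe sets were called lower (-2.46 and -1.66). Fas read 0.10 and -0.31 against 1.19, 0.96 and 0.97. Monocyte arrays were again all higher, by 2.21-fold (-1.14 ± 0.16 SE, limma adjusted p = 0.00166). Tnfrsf10b, the mouse TRAIL receptor, pointed the other way without a call (0.38 ± 0.13 SE, limma adjusted p = 0.0553), and its arrays did not overlap. Tnfrsf25, which encodes death receptor 3, was at 0.10 and not called.

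**Figure D3:**
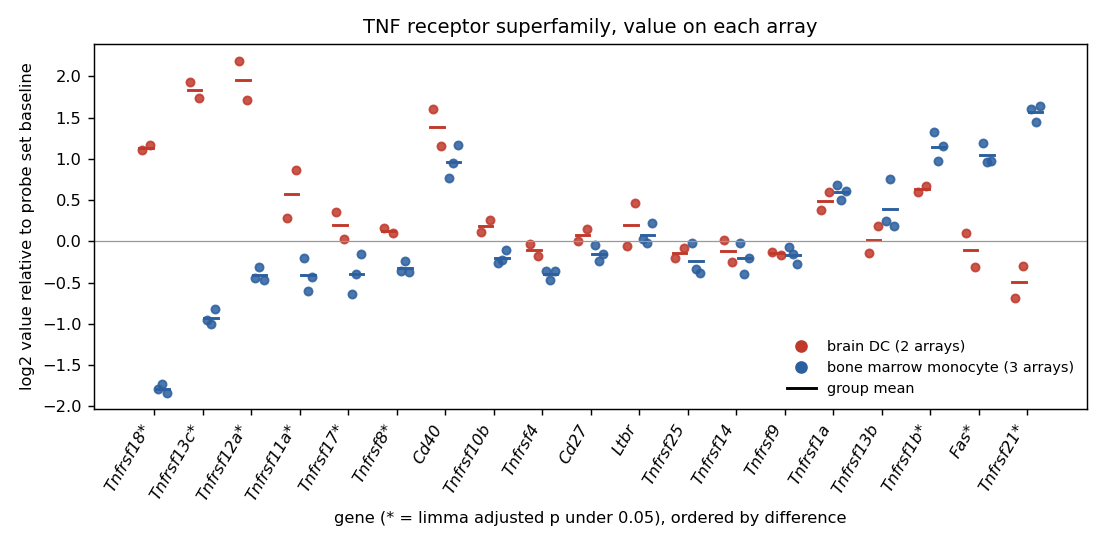
Value of each of the 19 receptors on every array (vertical axis, log2 relative to the probe set baseline; red brain DC, blue bone marrow monocyte, bars are group means, stars mark called genes). Tnfrsf18, Tnfrsf13c and Tnfrsf12a show brain DC arrays above 1 and monocyte arrays below 0, and Fas and Tnfrsf21 show the reverse order of groups.

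Ligands and their receptors were then set side by side. Of 23 known pairs, 18 had both partners measured, with several genes in more than 1 pair. Both partners were called higher in 3 pairs: Tnfsf8 with Tnfrsf8, and Tnfsf13b with Tnfrsf13c and with Tnfrsf17. Each of these pairs holds a call that leaving out 1 array can end. Without brain DC replicate 1 the count was 1, Tnfsf13b with Tnfrsf13c, and it was 0 without brain DC replicate 2, without any 1 of the 3 monocyte replicates and with the replicate block. A higher ligand met an uncalled receptor in 5 pairs. The widest of these was Tnfsf9 at 4.33 with Tnfrsf9 at 0.02, followed by Ltb at 2.20 with Ltbr at 0.13. The others were Tnf with Tnfrsf1a, Cd70 with Cd27, and Tnfsf13b with Tnfrsf13b. A higher ligand met a lower receptor in 1 pair, Tnf at 1.14 with Tnfrsf1b at -0.51, whose call is the one lost under the settings named above. With an uncalled ligand, the receptor was higher in 1 pair (Tnfsf11 with Tnfrsf11a) and lower in 2 (Fasl with Fas, and Lta with Tnfrsf1b). Neither partner was called in 6 pairs. Tnfrsf18 and Tnfrsf12a, among the largest receptor differences, had no measured ligand. No test was made between partners of a pair.

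**Figure D4:**
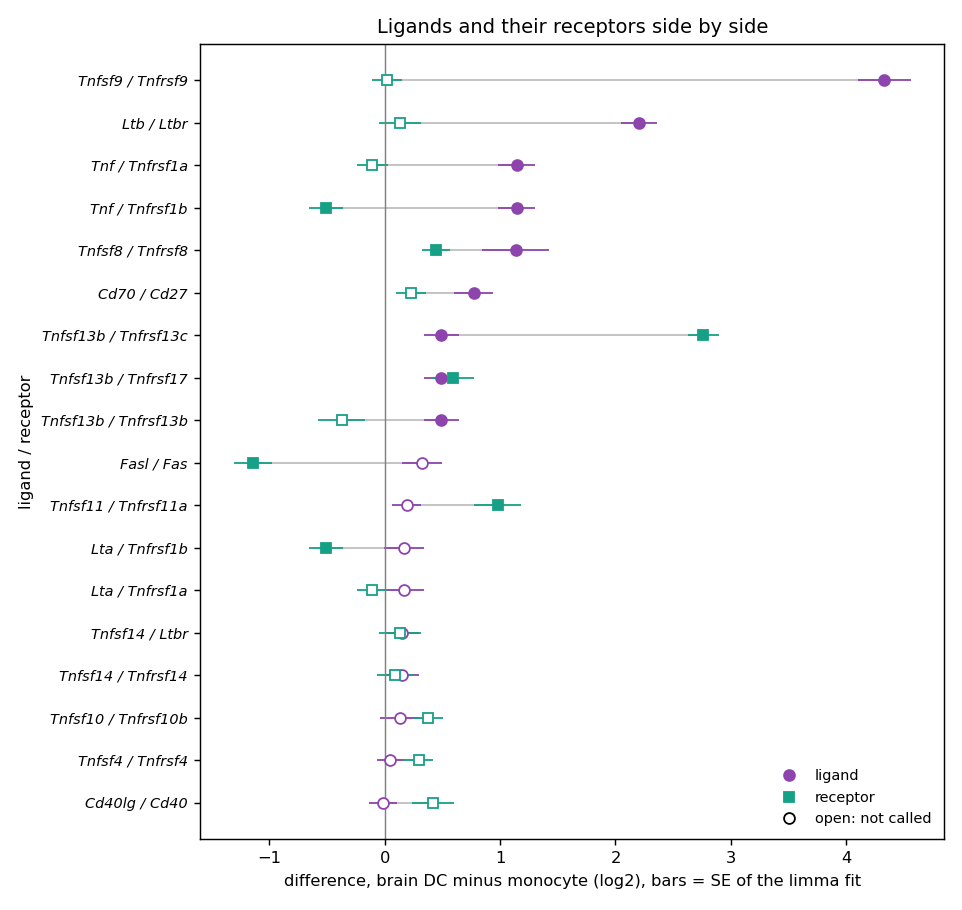
Differences (horizontal axis, log2, brain DC minus monocyte, bars are the SE of the limma fit) of the 18 ligand and receptor pairs with both partners measured; purple circles are ligands, green squares receptors and open symbols not called. The top pair joins Tnfsf9 at 4.33 to Tnfrsf9 at 0.02, and the pair of Tnfsf13b and Tnfrsf13c runs the other way, from 0.49 to 2.76.

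For 12 members with more than 1 probe set, the probe sets were compared. Those of Cd40, Tnfrsf9, Tnfsf10, Tnfsf13b and Tnfsf14 disagreed in sign, 5 of the 12. For Tnfsf14 the values were 0.50 and -0.20, and for Tnfrsf9 they ran from -0.11 to 0.21. For Cd40 they were 0.72, 0.54 and -0.01, and only the first was called higher (limma adjusted p = 0.0115 over all probe sets). Tnfrsf12a, Tnfrsf11a and Tnfrsf21 were the members of this kind whose probe sets were all called in one direction.

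**Figure D5:**
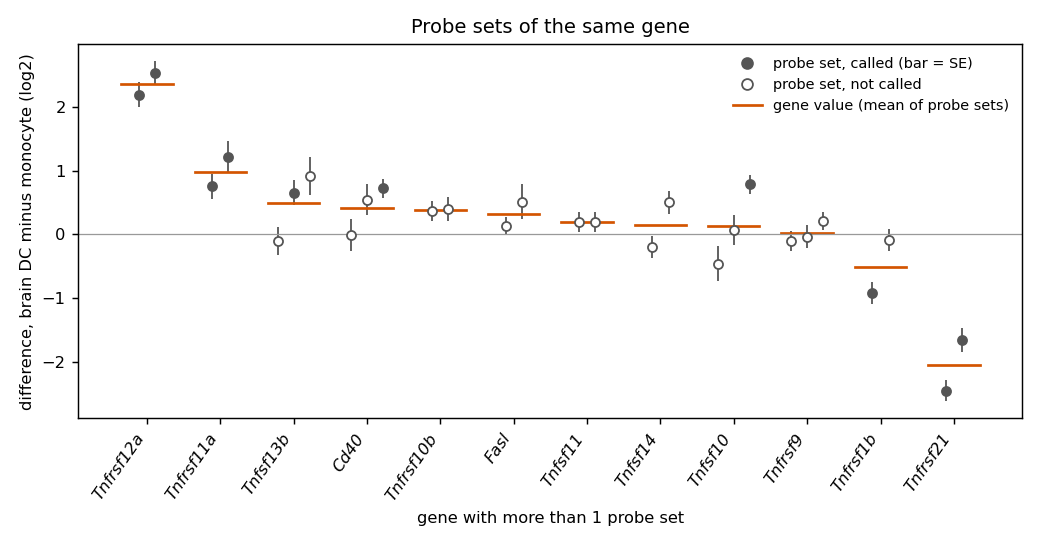
Difference of each probe set (points, with SE; open symbols not called) for the 12 members that have more than 1, with the gene value as an orange line (vertical axis, log2, brain DC minus monocyte). The probe sets of Tnfrsf12a (2.19 and 2.53) and of Tnfrsf21 (-2.46 and -1.66) each lie on 1 side of 0, while those of Tnfsf10 run from -0.46 to 0.78.

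Signalling genes downstream of the receptors were described as lists, chosen with earlier results of these data known. Of 25 measured adaptors and proximal signalling genes, 7 were called higher, 7 lower and 11 not called, with a median of -0.02. That is 28% in each direction, against 16.9% of all genes in each. Traf1, an inducible adaptor of TNF receptors, was at 4.57 ± 0.14 SE and Tnfaip3, which encodes the NF-kappaB inhibitor A20, at 2.06 ± 0.12 SE. Traf4 (0.77), the death-associated kinase gene Dapk1 (0.60), Map3k14, the kinase of the alternative NF-kappaB pathway (0.54), Rbck1 (0.52) and Tradd, the death domain adaptor (0.44), were the other called increases. The largest decrease was in Adam17, which encodes the protease that sheds TNF and its receptors (-1.24 ± 0.14 SE, limma adjusted p = 5.91e-04). Tab2 (-0.84), Traf2 (-0.79), the apoptosis protease gene Casp8 (-0.72), the kinase gene Map3k7 (-0.68), Tank (-0.67) and Cflar, an inhibitor of Casp8 (-0.52), were also called lower. Fadd, the adaptor between Fas and Casp8, was at -0.16 and not called.

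Most NF-kappaB genes and targets measured on that list were called higher in brain DCs. Of 13 measured, 10 were called higher (76.9%), 0 lower and 3 not called, with a median of 1.55. Over all genes, 16.9% were called higher and 16.9% lower. At an unadjusted limma p below 0.05 the counts were also 10 and 0, against 4283 and 3766 of all 18193 genes. The early response gene Ier3 (3.38), the subunit gene Rel (2.82), Gadd45b (2.39), the inhibitor genes Nfkbie (2.18) and Nfkbia (1.82) and the adhesion gene Icam1 (1.94) had the largest differences. Rela, the main activating subunit, was at 0.05 and not called. Of 9 measured family members outside the 36, 1 was called higher (11.1%), the nerve growth factor receptor gene Ngfr (0.43 ± 0.13 SE), and 0 lower. At an unadjusted limma p below 0.05 the counts were 2 and 0. The share called higher rests on 1 gene and lay near that of all genes (16.9%).

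The upstream stretches of 29 members were searched on both strands for the NF-kappaB consensus of degenerate letters. Matches lay upstream of 3, Ltb, Tnfrsf8 and Tnfrsf9, or 10.3% of them, against 4.46% of 27025 genes. Of the 10 members with a stretch that were called higher, 2 had a match. Of the 3 called lower, 0 had one, and of the 13 not called, 1 did. Tnfsf13, Tnfsf15 and Tnfsf18 had a stretch but no value here, so they are in none of these groups. Tnfsf9 and Cd70, also called higher, had no stretch and were not searched. A match describes these letters in this window only.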

How the data were processed

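RNA from 5 sorted samples was labelled with biotin and hybridised to Affymetrix arrays, per the labels' protocols. Per the submitters' processing notes the deposited values come from RMA, and they are taken as log2. The sources used here do not give the RMA version or the baseline. In 965 probe sets a pair of arrays held equal and opposite values (tolerance 1e-06), so the baseline is inferred to be a median over more arrays than these 5. Of 45101 probe sets, 64 were controls, 34945 had 1 symbol, 932 several and 9160 none. A gene's value was the mean of its probe sets with exactly 1 symbol (48 for the members).

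Groups came from sample titles. Differences were tested with limma 3.58.1 in R 4.3.3 (lmFit, eBayes without trend, no covariate) over 18193 genes, with 3 residual and 4.43 prior degrees of freedom, by a script tested on simulated data. The number of arrays limits the precision. Members, lists, pairs and the motif were chosen with earlier results of these data known. The naming rule took all members and up to 6 called genes of each signalling list with the largest differences. The other adaptor genes, Fadd and Rela were named after their values were seen. Alternatives were other probe set summaries, normalisations and variance estimates, a replicate block and leaving out each array. Dim probes could not be filtered on centred values. Upstream sequences are from RefSeq (GRCm38.p6), matched by symbol.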

Additional observations from a re-analysis of the deposited data

How the results depend on the processing

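Of the 15 called members, 9 kept their call under every alternative run: Tnf, Ltb, Tnfsf9, Fas, Tnfrsf11a, Tnfrsf12a, Tnfrsf13c, Tnfrsf18 and Tnfrsf21. The other 6 are Tnfsf8, Cd70, Tnfsf13b, Tnfrsf1b, Tnfrsf8 and Tnfrsf17, and each lost its call without at least 1 array. Leaving out each array gave 8 to 11 members higher and 2 to 3 lower. With the replicate number as a block, 10 were higher and 2 lower. There, 12 of the 15 called members were called, without Tnfsf13b, Tnfrsf1b and Tnfrsf8. The block fit leaves out bone marrow monocyte replicate 3, so its differences are those found without that array. It is thus not a separate check of them. Deviations of same-numbered arrays from their group means correlated at 0.04 and 0.09. The 2 brain DC arrays deviate as mirror images, so these values cannot show whether the numbers pair samples. The other alternatives gave 9 to 13 higher and 2 to 3 lower, the 9 when all probe sets of a gene had to be called. Residual degrees of freedom fall to 2 without an array and to 1 with the block, and a lone brain DC array is assumed to vary like the monocyte arrays.

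Signs changed only for members that were not called. Tnfsf4 was at -0.0072 and Tnfrsf1a at 0.0300 after quantile normalisation, and Tnfsf10 at -0.0060 with the replicate block. Tnfrsf9 was at -0.0367 with its probe set of largest SD, -0.0306 after quantile normalisation, -0.0217 with arrays centred on their medians and -0.0375 with the replicate block. Leaving out each array gave -0.0397 to 0.38 for Lta, -0.0060 to 0.24 for Tnfsf10, -0.0524 to 0.0113 for Cd40lg, -0.22 to 0.0021 for Tnfrsf1a, -0.13 to 0.39 for Ltbr, -0.0375 to 0.0686 for Tnfrsf9 and -0.0439 to 0.22 for Tnfrsf14. A further 3 uncalled members were called under an alternative, with values given above for Fasl and Cd40, and Tnfsf10 with its probe set of largest SD (0.78, limma adjusted p = 0.00758). The causes were not tested.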

Other observations

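A probe set annotated to the ligand genes Tnfsf12 and Tnfsf13 and to their joined transcript Tnfsfm13 cannot be assigned to any of them and is in no count above. It read 0.56 and 1.12 on the brain DC arrays and 2.92, 2.66 and 2.78 on the monocyte arrays. All monocyte arrays were higher (-1.95 ± 0.20 SE, limma adjusted p = 5.15e-04 over all probe sets). A second probe set, annotated to Tnfsf12 and Tnfsfm13, was at -0.14 ± 0.21 SE and not called. These ligands, TWEAK and APRIL, bind the receptors encoded by Tnfrsf12a, and by Tnfrsf13b and Tnfrsf17.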
